A study of Mus musculus with 2 samples.

Results

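Interferon response genes are genes whose transcription is raised by interferons, the antiviral cytokines. The 32 genes described here were chosen by name, as 32 of the 27998 genes in the count matrix, and all 32 were found there. They were measured in single thymocyte progenitors of C57BL/6 mice of genotype Bcl11byfp/yfp, which carry a yellow fluorescent reporter at Bcl11b. Every sort was gated as Lin- 7AAD- Kit+, that is live cells without lineage markers that carry the receptor Kit. A control sort took these cells with no further gate and so held early thymic progenitors together with the later DN2 cells. The other 4 sorts were also CD25- and Bcl11b- and were divided by Flt3, Ly6d and HSA (the product of Cd24a) into Flt3- Ly6d+, Flt3- Ly6d- HSA-, Flt3+ HSA+ and Flt3+ Ly6d- HSA- cells. The Flt3- Ly6d+ sort was not gated on HSA and the Flt3+ HSA+ sort was not gated on Ly6d.

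Each sort was stained with its own hashtag antibody and all were pooled into 1 cDNA library read from transcript 3′ ends. The control held 3302 cells, Flt3- Ly6d+ 847, Flt3- Ly6d- HSA- 1205, Flt3+ HSA+ 1182 and Flt3+ Ly6d- HSA- 1412. Median depth was 16040.0, 11404, 9860.0, 21151.5 and 15477.5 UMIs per cell in that order, where a UMI stands for a single captured transcript. Because each kind of sort was made 1 time, its cells do not replicate it, and differences between sorts carry no test. Values are CPM, the UMIs of a gene per 1000000 UMIs of all cells of a sort, and the 95% intervals given cover counting error only. A sort's cell makeup and the RNA of each of its cells cannot be told apart in a summed value. Cells with UMIs of at least 7 of 14 granulocyte and monocyte markers, called the granulocyte class below, made up 1.39% of the control, 8.05% of the Flt3- Ly6d- HSA- sort, 2.28% of the Flt3+ HSA+ sort and 4.89% of the Flt3+ Ly6d- HSA- sort, and none of the 847 Flt3- Ly6d+ cells. RNA of the gated proteins followed the gates: Flt3 had 18.02 CPM in the control, 14.2 in Flt3- Ly6d+, 23.7 in Flt3- Ly6d- HSA-, 64.0 in Flt3+ HSA+ and 87.7 CPM in Flt3+ Ly6d- HSA- cells, and Bcl11b had 193 CPM in the control and at most 3.48 CPM elsewhere. The level of free RNA was read from Cd3g, a T-cell receptor component, which had 193 CPM in the control and 0.351 to 0.942 CPM in the 4 CD25- Bcl11b- sorts.

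Type I interferons bind the Ifnar1 and Ifnar2 receptor, which through the kinases Jak1 and Tyk2 activates a complex that contains Stat2 and Irf9. That complex binds a DNA element, the ISRE, before its target genes. Type II interferon (Ifng) acts through Ifngr1 and Ifngr2 and leads to binding at another element, called GAS. Among the products of the target genes are sensors of foreign nucleic acids, proteins that block virus entry or replication, and regulators that amplify or end the signal. In the mouse thymus, epithelial cells are known to make interferon without infection.

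The ISRE letters in the start regions of 4 core genes are shown because the element is what these genes share in their known control. The core was a set of 15 of the 32 genes (Ifit1, Ifit2, Ifit3, Isg15, Usp18, Oasl2, Rtp4, Irf7, Zbp1, Xaf1, Dhx58, Ddx58, Ifih1, Stat2 and Irf9). The stretches lie on GRCm38.p6 at chr4:156200855-156200916 on the minus strand for Isg15, chr19:34640765-34640833 on the plus strand for Ifit1, chr19:34583353-34583436 on the plus strand for Ifit3 and chr10:128270256-128270305 on the plus strand for Stat2. They are from RefSeq, run 5′ to 3′ on the strand of the gene, and capitals mark the ISRE letters, GAAA and GAAA parted by any 2 bases, or their reverse complement, TTTC and TTTC parted likewise. Matches may overlap.
Isg15: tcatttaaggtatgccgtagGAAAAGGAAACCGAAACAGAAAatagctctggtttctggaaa
Ifit1: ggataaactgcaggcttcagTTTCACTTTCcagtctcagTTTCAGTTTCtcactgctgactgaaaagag
Ifit3: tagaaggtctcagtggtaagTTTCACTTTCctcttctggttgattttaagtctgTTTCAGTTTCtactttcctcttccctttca
Stat2: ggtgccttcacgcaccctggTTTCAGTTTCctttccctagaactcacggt

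Isg15 held 3 overlapping matches, at 78, 72 and 66 bases before the start, Ifit1 held 2, at 104 and 85 bases, Ifit3 held 2, at 156 and 122 bases, and Stat2 held 1, at 222 bases. In windows from 250 bases before to 50 bases after the start, searched on both strands, the ISRE letters stood in 12 of the 25 members with a window (48%), against 3.99% of 27025 genes. They stood in 6 of 11 core genes with a window. The GAS letters TTCNNNGAA, which read the same on both strands, stood in 9 of the 25 members (36%), against 9.55% of genes, and in 1 of 11 core genes with a window. A match describes letters in a window and not a bound site. Dhx58, Ifi27l2a, Parp14, Parp9, Rtp4, Usp18 and Zbp1 had no window in the table used.

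The summed level of the 32 genes was lowest in the control and close among the 4 CD25- Bcl11b- sorts. It was 2339.5 CPM in the control, 2829 CPM in Flt3- Ly6d+, 2803 CPM in Flt3- Ly6d- HSA-, 2628 CPM in Flt3+ HSA+ and 2790.3 CPM in Flt3+ Ly6d- HSA- cells. The median share of a cell's UMIs in the 32 genes was 0.213% in the control, and 0.247%, 0.254%, 0.247% and 0.262% in the other sorts in the same order. Ifitm1, Ifitm2, Ifitm3 and Bst2 supplied 68.2% to 71.7% of these UMIs in every sort, so the sum follows those genes. The 15 core genes gave another order, with 245 CPM in the control, 292 CPM in Flt3- Ly6d+, 293 CPM in Flt3- Ly6d- HSA-, 284 CPM in Flt3+ HSA+ and 357 CPM in Flt3+ Ly6d- HSA- cells. Outside the granulocyte class the core had 251 CPM in the control, 292 in Flt3- Ly6d+ and 347 CPM in Flt3- Ly6d- HSA- cells. It had 296 CPM in Flt3+ HSA+ and 392 CPM in Flt3+ Ly6d- HSA- cells there. Plasmacytoid dendritic cells are a known source of type I interferon, and the 10 markers on their list summed to 166 CPM in the control, 228 CPM in both Flt3- sorts, 192 CPM in Flt3+ HSA+ and 261 CPM in Flt3+ Ly6d- HSA- cells. Of that list Siglech, a defining marker, had at most 0.659 CPM in any sort and Klk1 was at 0 in every sort, and the part of these cells in the core levels was not tested. Of the 32 genes, 15 had their highest level in Flt3+ Ly6d- HSA- cells, among them 10 of the 15 core genes, against 11.9% of the 9469 genes that reached 5 CPM in any sort. All but Ifit3 reached 5 CPM in at least 1 sort, and 29 did so in every sort. The highest level was within 1.5-fold of the lowest for 19 of the 32 genes (59.4%), against 72.9% of the 9469 genes.

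**Figure D1:**
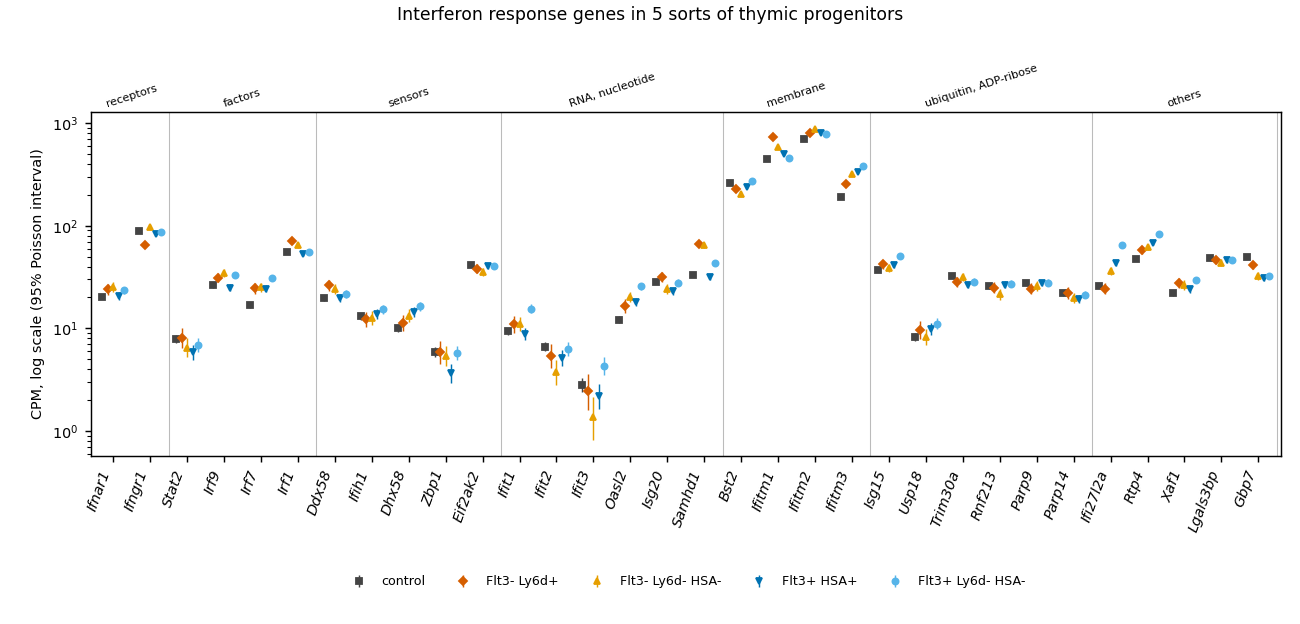
CPM of each of the 32 genes (log axis, 95% Poisson interval, counting error only) in the control and the 4 CD25- Bcl11b- sorts, grouped by role. Ifitm2 lies between 700.1 and 885 CPM, and Ifit3 at 4.30 CPM or less.

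Both receptor chains stayed within 1.5-fold over the sorts. Ifnar1, a chain of the type I receptor, had 20.3 CPM in the control, 24.2 in Flt3- Ly6d+, 25.3 in Flt3- Ly6d- HSA-, 20.7 in Flt3+ HSA+ and 23.4 CPM in Flt3+ Ly6d- HSA- cells. Ifngr1, the binding chain of the type II receptor, had 89.9 CPM in the control, 65.3 in Flt3- Ly6d+, 97.0 in Flt3- Ly6d- HSA-, 83.8 in Flt3+ HSA+ and 87.5 CPM in Flt3+ Ly6d- HSA- cells. A large part of Ifngr1 lay in the granulocyte class, which held 8.36% of its UMIs in the control, 40.7% in Flt3- Ly6d- HSA-, 28.4% in Flt3+ HSA+ and 33.2% in Flt3+ Ly6d- HSA- cells. Of the UMIs of all genes the class held 3.18%, 19.8%, 5.27% and 10.7% in the same order. Outside that class Ifngr1 had 85.1 CPM in the control, 65.3 in Flt3- Ly6d+, 71.7 in Flt3- Ly6d- HSA-, 63.3 in Flt3+ HSA+ and 65.4 CPM in Flt3+ Ly6d- HSA- cells, so the control stood highest and the others were close. Its partner Ifngr2, which is not among the 32, showed a wider spread over all cells, with 11.3 CPM in the control, 5.28 in Flt3- Ly6d+, 17.8 in Flt3- Ly6d- HSA-, 23.4 in Flt3+ HSA+ and 32.4 CPM in Flt3+ Ly6d- HSA- cells. These values of Ifngr2 include the granulocyte class, and the part of that class in them was not tested.

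Among the transcription factors, Irf7 and Irf1 were highest in different sorts. Irf7, which amplifies type I interferon production and is itself induced, had 16.9 CPM in the control, 24.5 in Flt3- Ly6d+, 25.04 in Flt3- Ly6d- HSA-, 24.4 in Flt3+ HSA+ and 30.9 CPM in Flt3+ Ly6d- HSA- cells. Irf1, an early target of type II interferon, was instead highest in Flt3- cells: it had 55.4 CPM in the control, 71.5 in Flt3- Ly6d+, 65.1 in Flt3- Ly6d- HSA-, 53.4 in Flt3+ HSA+ and 55.96 CPM in Flt3+ Ly6d- HSA- cells. Irf9, the DNA-binding partner of Stat2, had 26.2 CPM in the control, 31.3 in Flt3- Ly6d+, 34.3 in Flt3- Ly6d- HSA-, 24.98 in Flt3+ HSA+ and 33.1 CPM in Flt3+ Ly6d- HSA- cells. Stat2 stayed between 5.85 and 8.10 CPM.

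The sensors of nucleic acids were at low levels in every sort. Ddx58 (RIG-I), a sensor of viral RNA, had 19.6 CPM in the control, 26.3 in Flt3- Ly6d+, 24.1 in Flt3- Ly6d- HSA-, 19.8 in Flt3+ HSA+ and 21.6 CPM in Flt3+ Ly6d- HSA- cells. Eif2ak2 (PKR), a kinase that stops translation on binding double-stranded RNA, was nearly level, with 41.2 CPM in the control, 38.1 in Flt3- Ly6d+, 35.7 in Flt3- Ly6d- HSA-, 40.7 in Flt3+ HSA+ and 40.3 CPM in Flt3+ Ly6d- HSA- cells. Zbp1, a sensor of left-handed nucleic acid helices, had 5.87 CPM in the control, 5.84 in Flt3- Ly6d+, 5.42 in Flt3- Ly6d- HSA-, 3.63 in Flt3+ HSA+ and 5.77 CPM in Flt3+ Ly6d- HSA- cells, so that Flt3+ HSA+ cells stood apart, at a level near the limit of 5 CPM. Ifih1 (MDA5), another RNA sensor, lay between 12.2 and 15.3 CPM, and Dhx58 (LGP2), which regulates both RNA sensors, between 10.0 and 16.3 CPM.

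Among the effectors acting on RNA and nucleotides, Ifit3, Oasl2 and Samhd1 differed most between sorts, with 3.18, 2.12 and 2.11 times as much in the highest sort as in the lowest, Ifit3 at levels below 5 CPM. Samhd1 (chr2:157097533-157135265, mm10), which breaks down deoxynucleotides, had 33.1 CPM in the control, 66.3 in Flt3- Ly6d+, 64.3 in Flt3- Ly6d- HSA-, 31.4 in Flt3+ HSA+ and 42.9 CPM in Flt3+ Ly6d- HSA- cells. Both Flt3- sorts thus stood above the other sorts. Ifit1 (chr19:34640871-34650009), which binds foreign RNA caps, had 9.35 CPM in the control, 10.9 in Flt3- Ly6d+, 11.1 in Flt3- Ly6d- HSA-, 8.74 in Flt3+ HSA+ and 15.6 CPM in Flt3+ Ly6d- HSA- cells. Ifit2, of the same family, had 6.61 CPM in the control, 5.37 in Flt3- Ly6d+, 3.78 in Flt3- Ly6d- HSA-, 5.15 in Flt3+ HSA+ and 6.34 CPM in Flt3+ Ly6d- HSA- cells. Ifit3 reached at most 4.30 CPM, in Flt3+ Ly6d- HSA- cells; its close copy Ifit3b can take or lose reads that match both, so its level is uncertain. Oasl2, a relative of the oligoadenylate synthetases, was lowest in the control and highest in Flt3+ Ly6d- HSA- cells, with 12.2 CPM in the control, 16.5 in Flt3- Ly6d+, 20.3 in Flt3- Ly6d- HSA-, 17.99 in Flt3+ HSA+ and 25.9 CPM in Flt3+ Ly6d- HSA- cells. Isg20, an RNA exonuclease, had 28.1 CPM in the control, 31.6 in Flt3- Ly6d+, 24.3 in Flt3- Ly6d- HSA-, 23.0 in Flt3+ HSA+ and 27.8 CPM in Flt3+ Ly6d- HSA- cells, and was highest in Flt3- Ly6d+ cells.

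The membrane effectors held most of the UMIs, and the neighbouring Ifitm genes on chromosome 7 ran in opposite orders. Ifitm proteins hinder the fusion of virus with cell membranes. Ifitm1 (chr7:140967221-140969825) had 446 CPM in the control, 738 in Flt3- Ly6d+, 583 in Flt3- Ly6d- HSA-, 499.9 in Flt3+ HSA+ and 460.5 CPM in Flt3+ Ly6d- HSA- cells. Ifitm3 (chr7:141009586-141010770) had 189 CPM in the control, 253 in Flt3- Ly6d+, 316 in Flt3- Ly6d- HSA-, 332 in Flt3+ HSA+ and 387 CPM in Flt3+ Ly6d- HSA- cells. Within the 4 CD25- Bcl11b- sorts the order of Ifitm3 was thus the reverse of that of Ifitm1, and it was so too with equal weight for each cell and after thinning. Ifitm2 (chr7:140954837-140955987) had 700.1 CPM in the control, 808 in Flt3- Ly6d+, 885 in Flt3- Ly6d- HSA-, 800.4 in Flt3+ HSA+ and 787 CPM in Flt3+ Ly6d- HSA- cells. Bst2 (tetherin), which holds budding virus at the cell surface, had 260.1 CPM in the control, 229 in Flt3- Ly6d+, 203 in Flt3- Ly6d- HSA-, 238 in Flt3+ HSA+ and 272 CPM in Flt3+ Ly6d- HSA- cells, and was lowest in Flt3- Ly6d- HSA- cells.

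Isg15, a ubiquitin-like protein joined to other proteins, had 36.7 CPM in the control, 42.1 in Flt3- Ly6d+, 38.9 in Flt3- Ly6d- HSA-, 41.2 in Flt3+ HSA+ and 50.8 CPM in Flt3+ Ly6d- HSA- cells. Usp18, the enzyme that removes Isg15 and also dampens the type I receptor, lay between 8.20 CPM in the control and 11.1 CPM in Flt3+ Ly6d- HSA- cells. The other enzymes of ubiquitin and ADP-ribose were nearly level. Trim30a, of the tripartite motif family, had 32.5 CPM in the control, 28.4 in Flt3- Ly6d+, 31.7 in Flt3- Ly6d- HSA-, 26.5 in Flt3+ HSA+ and 28.5 CPM in Flt3+ Ly6d- HSA- cells. For Rnf213, a large ubiquitin ligase, the levels were 25.6 CPM in the control, 24.96 in Flt3- Ly6d+, 21.4 in Flt3- Ly6d- HSA-, 26.6 in Flt3+ HSA+ and 27.2 CPM in Flt3+ Ly6d- HSA- cells. Both thus stayed within 1.5-fold. Parp9, which works with the ubiquitin ligase Dtx3l, showed 27.6 CPM in the control, 24.3 in Flt3- Ly6d+, 25.9 in Flt3- Ly6d- HSA-, 27.8 in Flt3+ HSA+ and 27.9 CPM in Flt3+ Ly6d- HSA- cells. Parp14, an ADP-ribosyl transferase, showed 21.9 CPM in the control, 22.1 in Flt3- Ly6d+, 19.8 in Flt3- Ly6d- HSA-, 19.2 in Flt3+ HSA+ and 21.4 CPM in Flt3+ Ly6d- HSA- cells, and no sort stood apart for either gene.

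Of the remaining genes, Ifi27l2a differed most between sorts, with 2.68 times as much in its highest as in its lowest. Ifi27l2a (chr12:103442167-103443680), which codes for a small interferon-induced membrane protein, had 26.0 CPM in the control, 24.3 in Flt3- Ly6d+, 36.2 in Flt3- Ly6d- HSA-, 43.5 in Flt3+ HSA+ and 65.0 CPM in Flt3+ Ly6d- HSA- cells. Rtp4, a chaperone of membrane receptors, followed the same order except for the control, with 47.4 CPM in the control, 57.5 in Flt3- Ly6d+, 61.8 in Flt3- Ly6d- HSA-, 67.4 in Flt3+ HSA+ and 83.5 CPM in Flt3+ Ly6d- HSA- cells. Gbp7, a guanylate-binding protein, ran the other way and was highest in the control, with 49.2 CPM in the control, 41.4 in Flt3- Ly6d+, 32.5 in Flt3- Ly6d- HSA-, 30.9 in Flt3+ HSA+ and 32.4 CPM in Flt3+ Ly6d- HSA- cells. Xaf1, a pro-apoptotic protein, was lowest in the control, with 22.1 CPM in the control, 27.6 in Flt3- Ly6d+, 26.5 in Flt3- Ly6d- HSA-, 24.2 in Flt3+ HSA+ and 29.6 CPM in Flt3+ Ly6d- HSA- cells. Lgals3bp, a secreted galectin-binding glycoprotein, was nearly level, with 48.04 CPM in the control, 46.3 in Flt3- Ly6d+, 43.7 in Flt3- Ly6d- HSA-, 46.2 in Flt3+ HSA+ and 46.1 CPM in Flt3+ Ly6d- HSA- cells.

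The sorts were compared in 5 pairs, which share sorts and so are not independent of each other. A gene was counted when it had at least 5 CPM in either sort of a pair and differed at least 1.5-fold, and 31 of the 32 genes reached that level in each pair.

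Among cells without Ly6d and HSA, few members differed by 1.5-fold with Flt3 when all cells were taken. Between Flt3- Ly6d- HSA- and Flt3+ Ly6d- HSA- cells, 1 member was counted as higher, where 4.56% of all measured genes were, and 2 as lower, where 4.59% of genes were. The member counted as higher was Samhd1, at a ratio of 1.5 (1.37 to 1.64). It lay on the limit and was no longer counted with TMM factors or DESeq2 size factors, at a log2 ratio of 0.54 with each, or with equal weight for each cell, at 0.55. Those counted as lower were Ifit2, at 0.597 (0.428 to 0.820), and Ifi27l2a, at 0.556 (0.502 to 0.615). The median log2 ratio of the members was -0.16, against 0.03 over all measured genes, and 12 of the 14 measured core genes lay below a ratio of 1, against 44.8% of all measured genes. Both counts are near the shares of all genes. Of the granulocyte and monocyte markers 5 of 13 measured were counted as higher and 1 as lower, and without the granulocyte class the members' median log2 ratio was -0.07. Of the markers for NK and innate lymphoid cells 3 of 5 measured, Gzmb, Fcer1g and Tyrobp, were counted as higher. Of those for plasmacytoid dendritic cells 2 of 5, Ccr9 and Cox6a2, were counted as lower. All 20 listed genes of G2 and M phase were counted as lower in the Flt3- sort. With cells holding a UMI of those genes left out, 786 Flt3- Ly6d- HSA- and 594 Flt3+ Ly6d- HSA- cells remained. Of the members 8 were then counted as lower and none as higher. That count stands without the share of all genes under the same filter, so it cannot be set against the shares above. The members' median log2 ratio was then -0.36, against 0.02 over all measured genes, and the log2 ratio of Samhd1 was 0.27.

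Among Flt3+ cells, Ifit1 and Zbp1 were lower in those with HSA than in those without Ly6d and HSA. Between Flt3+ HSA+ and Flt3+ Ly6d- HSA- cells, no member was counted as higher, where 2.05% of genes were, and 2 were counted as lower, where 0.75% of genes were. Ifit1 stood at a ratio of 0.561 (0.473 to 0.663), and Zbp1, at 0.629 (0.479 to 0.823). Both were at low levels, with 8.74 CPM in Flt3+ HSA+ and 15.6 CPM in Flt3+ Ly6d- HSA- cells for Ifit1. Zbp1 had 3.63 and 5.77 CPM in the same order, near the limit of 5 CPM. Of the 31 measured members 27 lay below a ratio of 1, and so did all 14 measured core genes, against 51.6% of all measured genes. The median log2 ratio was -0.18 for the members and -0.30 for the core, against -0.00 over all measured genes. The cells of the HSA+ sort carried more G2 and M phase RNA (19 of 20 listed genes counted as higher) and more RNA of the class II genes on the conventional dendritic list. Of its 10 genes 4 were measured and all 4 counted as higher, and the list summed to 110.6 CPM in Flt3+ HSA+ and 35.8 CPM in Flt3+ Ly6d- HSA- cells, with Cd209a and Xcr1 at 0 in both. Of the plasmacytoid dendritic markers 2 of 5 measured were counted as lower, Ccr9 at a ratio of 0.354 (0.311 to 0.402) and Irf8 at 0.359 (0.322 to 0.399), and all 5 lay below 1. The part of these genes in the result was not tested. Without the granulocyte class 4 members were counted as lower, with Oasl2 and Ifi27l2a added. That count stands without the share of all genes under the same filter, and the 0.75% above is for all cells. The median log2 ratio was then -0.22 for the members, against -0.01 over all measured genes. Without the cells rich in core UMIs described below the log2 ratio of Ifit1 was -0.11. Ifit1 is itself a core gene, so leaving out those cells shrinks its ratio by construction.

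Between the Flt3- sorts with and without Ly6d, none of the 31 measured members differed by 1.5-fold. The sort with Ly6d was not gated on HSA, and Cd24a had 203 CPM there and 96.2 CPM in the other. Ly6d and HSA thus cannot be told apart in this pair. Between Flt3- Ly6d+ and Flt3- Ly6d- HSA- cells, no member was counted as higher, where 1.75% of genes were, and none as lower, where 2.47% were. The median log2 ratio was 0.06 for the members, against 0.02 over all measured genes. Of the measured members Ifngr1 and Ifi27l2a came closest to the limit, each with a log2 ratio of -0.57. Ifit3, below 5 CPM in both sorts and so not counted, had 2.45 CPM in Flt3- Ly6d+ and 1.36 CPM in Flt3- Ly6d- HSA- cells, a ratio of 1.81 (0.962 to 3.45). Granulocyte markers differed far more, with 12 of 12 measured ones counted as lower, and without the granulocyte class Ifi27l2a was counted as lower, with 24.3 CPM in Flt3- Ly6d+ and 44.0 CPM in Flt3- Ly6d- HSA- cells.

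Between Flt3- Ly6d+ and Flt3+ HSA+ cells, 2 members were counted as higher, where 8.30% of genes were, and 1 as lower, where 7.31% of genes were. Samhd1 had a ratio of 2.11 (1.905 to 2.34) and Zbp1 a ratio of 1.61 (1.15 to 2.24). Ifi27l2a had a ratio of 0.559 (0.486 to 0.641). These are 6.45% and 3.23% of the measured members, both below the shares of all genes, and the median log2 ratio was 0.03, against 0.04 over all measured genes. All 20 listed G2 and M phase genes were counted as lower here too, and with cells holding such a UMI left out Samhd1 had a log2 ratio of 0.62 and Zbp1 was no longer counted, at 0.17.

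The control, which alone holds CD25+ and Bcl11b+ cells, had lower levels of several members than the unweighted mean of the 4 CD25- Bcl11b- sorts. No member was counted as higher, where 3.57% of genes were, and 5 (16.1% of those measured) were counted as lower, where 3.49% of genes were. They were Ifitm3, with a ratio of 0.588 (0.575 to 0.602), Oasl2 with 0.605 (0.552 to 0.662), Ifi27l2a with 0.615 (0.578 to 0.654), Irf7 with 0.645 (0.596 to 0.697) and Samhd1 with 0.646 (0.610 to 0.684). The median log2 ratio was -0.21 for the members, against 0.03 over all measured genes. Gbp7 had the highest log2 ratio of the members, 0.52. Samhd1 was no longer counted when each cell was thinned to 3000 UMIs, at a log2 ratio of -0.42, nor with equal weight for each cell, at -0.54, nor with cycling cells left out in the same way, at -0.29.

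**Figure D2:**
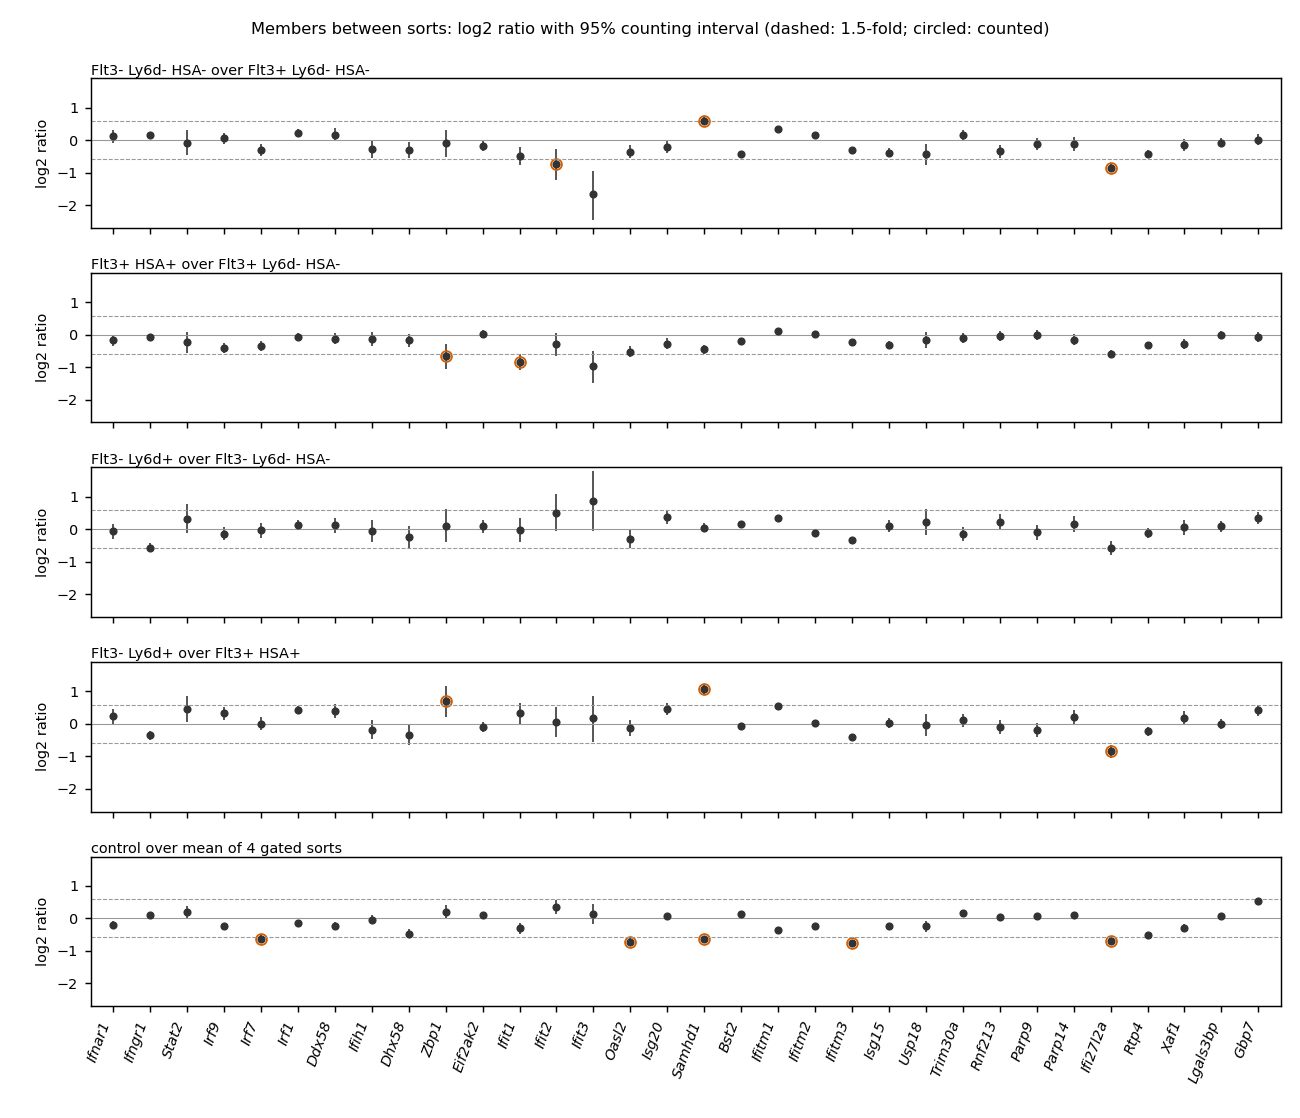
Log2 ratio of each of the 32 genes in each of the 5 comparisons, named above each panel, with 95% counting intervals. Dashed lines mark a 1.5-fold difference, and circles the genes counted, of which Samhd1 in Flt3- Ly6d+ over Flt3+ HSA+ cells lies highest, at 1.08.

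The control spans later stages, and its cells were divided by RNA, in the order of T-cell development, into 1112 cells without UMIs of Il2ra (CD25) or Bcl11b, 766 with Il2ra and no Bcl11b, 835 with Bcl11b and no Cd3g, and 589 with Bcl11b and Cd3g. The classes rest on UMIs at full depth, so shallow cells can fall into an earlier class. Across them the summed level of the 32 genes was 2719.9, 2722, 1959 and 1755 CPM in that order. Ifitm1 had 580.3, 714, 295 and 88.0 CPM across the 4 classes, and Ifitm3 had 318, 213, 101 and 65.4 CPM. Ifitm2 had 821, 849.9, 588 and 461 CPM. Ifitm1, Ifitm2 and Ifitm3 were thus lowest in the cells with Cd3g, with Ifitm1 covering the widest range of them. Samhd1 had 46.6, 41.6, 26.3 and 7.80 CPM, falling in the same order. Bst2, with 230.1, 253, 280.2 and 291 CPM, and Gbp7, with 33.6, 47.5, 58.8 and 64.7 CPM, ran upwards instead. Ifngr1 had 76.0, 54.8, 74.6 and 189.6 CPM and was highest in the cells with Cd3g. The core did not follow the fall of the sum, with 278, 228, 218 and 253 CPM.

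**Figure D3:**
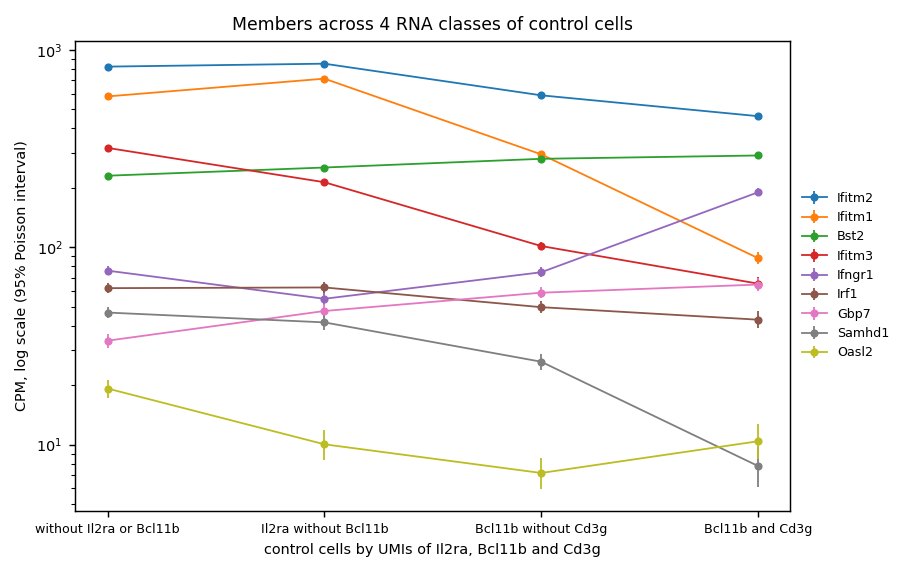
CPM (log axis, 95% Poisson interval) of 9 members in control cells divided by UMIs of Il2ra, Bcl11b and Cd3g, in developmental order. Ifitm1 reaches 88.0 CPM and Samhd1 7.80 CPM in the cells with both Bcl11b and Cd3g, where Ifngr1 reaches 189.6 CPM.

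Core UMIs were unevenly spread over cells in every sort. To compare cells of unlike depth, each was thinned to 3000 UMIs, which left out 52 control, 21 Flt3- Ly6d+, 45 Flt3- Ly6d- HSA-, 6 Flt3+ HSA+ and 7 Flt3+ Ly6d- HSA- cells as too shallow. The variance of the core UMIs per cell was 3.78 times the mean in the control, 3.44 in Flt3- Ly6d+, 4.03 in Flt3- Ly6d- HSA-, 3.60 in Flt3+ HSA+ and 4.63 in Flt3+ Ly6d- HSA- cells, where independent counts give a value of 1. Between 48.9% and 57.5% of cells had no core UMI, while the highest cell of each sort had 28 in the control, 18 in Flt3- Ly6d+, 29 in Flt3- Ly6d- HSA-, 31 in Flt3+ HSA+ and 32 in Flt3+ Ly6d- HSA- cells. At full depth the median share of a cell's UMIs in the core was 0.0140% in the control, 0.0147% in Flt3- Ly6d+, 0.0168% in Flt3- Ly6d- HSA-, 0.0151% in Flt3+ HSA+ and 0.0201% in Flt3+ Ly6d- HSA- cells.

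Cells with at least 3 core UMIs among 3000, called core-high, are a range of a score and not a cell type. They numbered 841 of 7817 (10.8%). Their share was 8.43% in the control (7.50% to 9.44%, exact Clopper-Pearson), 10.7% in Flt3- Ly6d+ (8.63% to 13.0%), 12.2% in Flt3- Ly6d- HSA- (10.4% to 14.3%), 10.8% in Flt3+ HSA+ (9.08% to 12.7%) and 14.9% in Flt3+ Ly6d- HSA- cells (13.1% to 16.9%). These intervals cover the counting of cells within 1 sort of each kind and give no test between sorts. Many cells lay near the limit, with 123 control, 43 Flt3- Ly6d+, 50 Flt3- Ly6d- HSA-, 60 Flt3+ HSA+ and 67 Flt3+ Ly6d- HSA- cells at exactly 3, and 307, 83, 91, 122 and 165 at exactly 2. Core-high cells held 49.9% of the core UMIs in the control, 53.7% in Flt3- Ly6d+, 60.1% in Flt3- Ly6d- HSA-, 54.6% in Flt3+ HSA+ and 63.4% in Flt3+ Ly6d- HSA- cells. They carried UMIs of a median of 3 different core genes in every sort. In the control classes the share was 11.6%, 6.71%, 6.66% and 7.24% in developmental order.

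**Figure D4:**
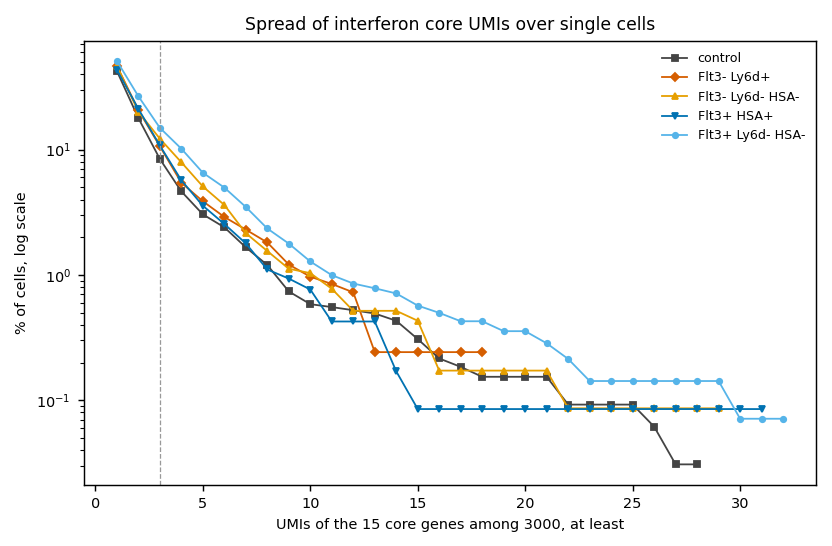
Share of cells (%, log axis) with at least the given number of UMIs of the 15 core genes among 3000, for the control and the 4 CD25- Bcl11b- sorts. The dashed line marks 3 UMIs, where the shares run between 8.43% in the control and 14.9% in Flt3+ Ly6d- HSA- cells.

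Individual genes were then compared between core-high and other cells over all sorts, with each core gene's own UMIs left out of the score that chose the cells. The score and the genes come from the same cells, so the ratios are descriptions. Ifit1, with its 2 ISRE matches, had 116 CPM in cells high for the other core genes and 3.76 CPM in other cells, a ratio of 30.9 (24.0 to 40.1). Ifit3 had 74 UMIs in 840 such cells and 4 UMIs in the other 6977, a ratio of 154 (57.5 to 579). Usp18 had a ratio of 13.4 (10.2 to 17.6), Isg15 of 9.62 (8.52 to 10.9), with 250.4 CPM in high and 26.0 CPM in other cells, and Oasl2 of 7.51 (6.28 to 8.97). Stat2 had the lowest ratio of the 15 core genes, 1.26 (0.756 to 2.0). The 17 members outside the core were led by Trim30a at 3.63 (3.12 to 4.23), Isg20 at 3.42 (2.91 to 4.02) and Parp14 at 3.18 (2.63 to 3.83).

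The most abundant members did not share this pattern evenly. Ifitm3 had 574 CPM in core-high and 253 CPM in other cells, a ratio of 2.27 (2.14 to 2.41), and Bst2 had 424 and 234 CPM, a ratio of 1.81 (1.69 to 1.93). Ifitm1 had a ratio of 1.11 (1.05 to 1.18) and Ifitm2 of 0.983 (0.937 to 1.03). The receptor chains were near 1, with Ifnar1 at 1.09 (0.834 to 1.40) and Ifngr1 at 0.907 (0.777 to 1.05). Irf1 had a ratio of 1.43 (1.24 to 1.64) and Samhd1 of 1.40 (1.19 to 1.64).

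**Figure D5:**
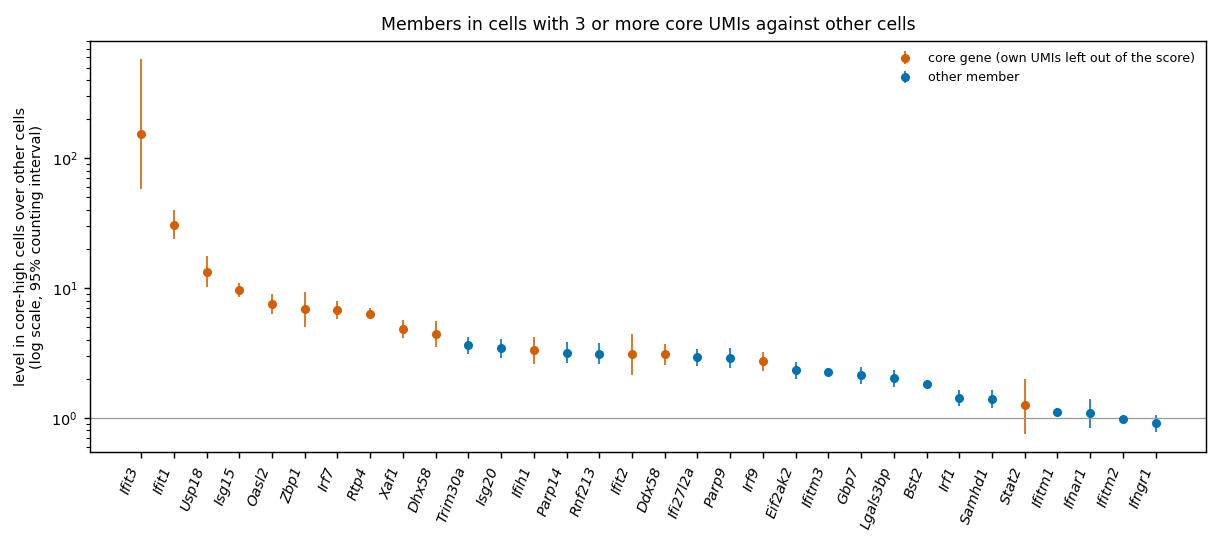
Level of each of the 32 genes in core-high cells over other cells (log axis, 95% counting interval), with the 15 core genes scored without their own UMIs. Ifit3 lies highest, at 154, and Ifngr1 lowest, at 0.907.

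Outside the Flt3- Ly6d+ sort, core-high cells also differed from other cells in depth and granulocyte class. In every sort they less often held a G2 or M phase UMI. The part of these differences in the ratios was not tested. Their median depth before thinning was 12494 UMIs in core-high and 16646 in other cells of the control, 11558 and 11497 in Flt3- Ly6d+, 9005 and 10334 in Flt3- Ly6d- HSA-, 16110.0 and 21647 in Flt3+ HSA+, and 12154.5 and 16366 in Flt3+ Ly6d- HSA- cells. The share with a G2 or M phase UMI was 46.7% of core-high and 56.9% of other control cells, 30.7% and 37.4% in Flt3- Ly6d+, 28.9% and 32.7% in Flt3- Ly6d- HSA-, 65.4% and 78.5% in Flt3+ HSA+, and 44.8% and 60.0% in Flt3+ Ly6d- HSA- cells. Only 2 core-high cells, both of Flt3- Ly6d- HSA-, belonged to the granulocyte class (1.41% of core-high cells of that sort). Of the other cells the class made up 1.55% in the control, 9.33% in Flt3- Ly6d- HSA-, 2.57% in Flt3+ HSA+ and 5.77% in Flt3+ Ly6d- HSA- cells. Within that class Isg15 had 6.59 CPM in the control, 6.49 in Flt3- Ly6d- HSA-, 5.93 in Flt3+ HSA+ and 3.43 CPM in Flt3+ Ly6d- HSA- cells, and Ifit1 at most 1.44 CPM.

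Genes outside the 32 were also followed over single cells. Among 5992 other genes with at least 20 CPM in a sort, those whose levels correlated best with the core score over single cells (Pearson's r within each sort, averaged over 5 sorts) included Trim12c at 0.243, Ly6a at 0.229, Ifi203 at 0.219, Irgm1 at 0.191, Herc6 at 0.186, Shisa5 at 0.182 and Trim12a at 0.179. The cells share a library, and for Trim12c the r ran between 0.178 and 0.305 over the sorts. Rsad2 (viperin), an antiviral enzyme, had a CPM ratio of core-high over other cells of 18.6 (13.2 to 26.5), and Ifi44 one of 14.3 (10.9 to 18.8).

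Of 76 further pathway genes measured in any of the 5 comparisons, 12 (15.8%) differed by 2-fold or more in at least 1, against 8.09% of 9469 genes. Among 9 measured receptors and kinases only Ifngr2 did, at a ratio of 0.297 (0.218 to 0.398) in Flt3- Ly6d+ over Flt3- Ly6d- HSA- cells and of 0.226 (0.168 to 0.297) in Flt3- Ly6d+ over Flt3+ HSA+ cells. Of the other type I targets, Ly6a, a surface antigen of progenitors, had 88.0 CPM in Flt3- Ly6d- HSA- and 177 CPM in Flt3+ Ly6d- HSA- cells, a ratio of 0.496 (0.465 to 0.529). Slfn2 had a ratio of 0.356 (0.231 to 0.533) in Flt3- Ly6d+ over Flt3- Ly6d- HSA- cells, and Rsad2 one of 2.06 (1.51 to 2.80) in Flt3- Ly6d+ over Flt3+ HSA+ cells. Ifi44 had 4.53 CPM in the control and a mean of 9.93 CPM over the 4 CD25- Bcl11b- sorts. The levels of further pathway genes in this paragraph and the next include the granulocyte class.

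Type II targets differed in both directions. Cxcl10, a chemokine, had 5.28 CPM in Flt3- Ly6d+ cells, at a ratio of 2.24 (1.43 to 3.56) over Flt3- Ly6d- HSA- and of 3.14 (2.07 to 4.79) over Flt3+ HSA+ cells. Irf8, a transcription factor of myeloid and dendritic cells that is also on the plasmacytoid dendritic list, had 19.1 CPM in the control, 34.3 in Flt3- Ly6d+, 64.8 in Flt3- Ly6d- HSA-, 18.5 in Flt3+ HSA+ and 51.5 CPM in Flt3+ Ly6d- HSA- cells. It was thus 2-fold lower or more in the control than the mean of the other sorts, at a ratio of 0.453. Gbp4, Gbp8 and Gbp9 ran the other way, with 13.7, 17.6 and 7.45 CPM in the control and means of 0.392, 1.14 and 1.05 CPM over the 4 CD25- Bcl11b- sorts. In the control classes Gbp4 had 0.442, 2.76, 17.8 and 46.8 CPM and Gbp8 1.55, 5.98, 23.7 and 53.3 CPM in developmental order. Socs3, an inhibitor of cytokine receptors, had 20.2 CPM in Flt3- Ly6d+ and 3.55 CPM in Flt3+ HSA+ cells, a ratio of 5.68 (4.42 to 7.34), and was higher in Flt3- Ly6d- HSA- than in Flt3+ Ly6d- HSA- cells, at a ratio of 2.48 (1.95 to 3.15). Irf5, a transcription factor downstream of nucleic acid sensors, had a ratio of 2.32 (1.87 to 2.87) in Flt3- Ly6d+ over Flt3+ HSA+ cells. The interferon ligands themselves were almost absent, with 76 UMIs in all assigned cells from 4 of the 21 listed genes, summed to 0.752 CPM in the control and 0.390 to 0.571 CPM in the other sorts.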

How the data were processed

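The values deposited by the authors are raw UMI counts, not normalized, for 27998 genes in 8293 cell barcodes, and hashtag counts for the same barcodes. Cell Ranger 3.0 and mm10 are named in the submitters' processing notes, and no source used here gives filters applied before deposit. Sorts were taken from the authors' deposited assignment of 7948 barcodes. The 345 unassigned barcodes (4.16%) were left out, doublets within a hashtag were not called, and no cell was filtered further.

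UMIs were summed per sort and scaled to 1000000. A gene was measured at 5 CPM and counted at a ratio of 1.5. Intervals (95%) are exact Poisson for CPM, a binomial split for ratios (log-normal for the control comparison) and exact Clopper-Pearson for shares. No test was run, since there was 1 sort of each kind. The size rule and the intervals were checked on simulated counts, drawn as independent Poisson counts of each gene in a whole sort. The simulation held no spread between cells, so it cannot show that the intervals cover such spread. Values per sort are given for members with 20 CPM in any sort or counted in a comparison, and ranges for the others. Genes of the pathway lists are named at 2-fold, and marker lists mostly by counts. Gene positions are from GENCODE M21, which held 27645 of the 27998 identifiers. Members and lists were chosen with earlier results of these data known. Scaling factors came from edgeR 4.0.16 (TMM) and DESeq2 1.42.0 as alternatives to totals, with Python 3.11.15, SciPy 1.17.1 and R 4.3.3. A gene named by its likeness to the core score is not reported here.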

Additional observations from a re-analysis of the deposited data

How the results depend on the processing

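Of the 13 single-gene ratios counted, recomputed under the 10 alternatives that can move them (130 values), none changed direction, 111 stayed within the counting interval and 113 remained at 1.5-fold or more. No floor, a floor of 20 CPM, a ratio of 2 and a hashtag filter that removed no cell cannot move a single ratio. Leaving out core-high cells was chosen after seeing the data. Because that removes cells by the core genes themselves, core ratios shrink by construction. For the other changes the cause was not tested.

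The number of members counted as higher in Flt3- Ly6d- HSA- over Flt3+ Ly6d- HSA- cells, 1 in the report, was 0 with TMM factors, DESeq2 size factors, equal weight for each cell, a ratio of at least 2, or only cells lacking G2 and M phase UMIs. The number counted as lower there, 2, was 4 with equal weight, 5 with thinned cells, 1 at 20 CPM, 0 at a ratio of 2 and 8 in cells lacking G2 and M phase UMIs. The number counted as lower in Flt3+ HSA+ over Flt3+ Ly6d- HSA- cells, 2, was 4 with totals that leave out mitochondrial and ribosomal protein genes, without the 5% of cells with most UMIs or without the granulocyte class, 5 with equal weight, 7 with thinned cells, 0 at 20 CPM or a ratio of 2, and 1 without core-high cells. In Flt3- Ly6d+ over Flt3- Ly6d- HSA- cells the number counted as higher, 0, was 2 with thinned cells and 1 with no floor. The number counted as lower there, 0, was 2 with TMM factors or thinned cells and 1 with equal weight, without the 5% of cells with most UMIs, without the granulocyte class, in cells lacking G2 and M phase UMIs, without the 10 cells with most member UMIs, or without core-high cells. In Flt3- Ly6d+ over Flt3+ HSA+ cells the number counted as higher, 2, was 1 with thinned cells, at 20 CPM, at a ratio of 2, or in cells lacking G2 and M phase UMIs. The number counted as lower there, 1, was 2 with thinned cells, 0 at a ratio of 2 and 3 in cells lacking G2 and M phase UMIs. In the control the number counted as higher, 0, was 1 without core-high cells (Gbp7), and the number counted as lower, 5, was 3 with thinned cells and 0 at a ratio of 2. These counts stand without the share of all genes under each setting, so a shift cannot be read as particular to the members. Where 7 members were counted as lower with thinned cells, the median log2 ratio was -0.23 for the members, against -0.005 over all measured genes.

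The summed member level was lowest in the control under every alternative. For the control, Flt3- Ly6d+, Flt3- Ly6d- HSA-, Flt3+ HSA+ and Flt3+ Ly6d- HSA- cells in that order it was 2337, 2747, 2759, 2709 and 2835 CPM with TMM factors. It was 2311, 2783, 2762, 2702 and 2834 CPM with DESeq2 size factors. With totals that leave out mitochondrial and ribosomal protein genes it was 3612, 4579, 4525, 4121 and 4419 CPM. Equal weight for each cell gave 2415, 2754, 2892, 2777 and 3021 CPM. Thinned cells gave 2435, 2812, 2953, 2768 and 2969.9 CPM. Without the 5% of cells with most UMIs it was 2389.8, 2824, 2962, 2717 and 2918 CPM. Without the granulocyte class it was 2362, 2829, 3006, 2693 and 2904 CPM. Cells lacking G2 and M phase UMIs gave 2655, 2880.4, 2950.3, 3096 and 3242 CPM. Without the 10 cells of each sort with most member UMIs it was 2314, 2764, 2739, 2584 and 2735 CPM, and without core-high cells 2202, 2656, 2579.6, 2423 and 2490.5 CPM. The order among the 4 CD25- Bcl11b- sorts changed between these settings.

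In the same order of sorts, the share of core-high cells was 17.9%, 20.7%, 20.1%, 21.2% and 26.7% with a limit of 2 core UMIs, and 3.05%, 3.87%, 5.09%, 3.57% and 6.55% with a limit of 5, with Flt3+ Ly6d- HSA- cells highest and the control lowest each time.

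No paired analysis was possible because each sort was made 1 time. Counting error limits the rarest members most: Zbp1, Ifit2, Ifit3 and Stat2 lay below 10 CPM in every sort.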

Other observations

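The 345 barcodes that the authors assigned to no sort had a median of 29414 UMIs. Their summed level of the 32 genes was 2648 CPM, and that of the 15 core genes was 337 CPM.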
